A study of Mus musculus with 6 samples.

Results

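The BCL-2 family decides whether the outer mitochondrial membrane of a cell stays closed or is opened in apoptosis. The genes described are 10 of its members, chosen by symbol from the 11717 genes of the deposited table: the anti-apoptotic Bcl2, Mcl1, Bcl2l1, Bcl2a1b and Bcl2a1d, the BH3-only Bcl2l11, Bad, Bid and Bmf, and the effector Bak1. All 10 were listed. RNA was sequenced from splenic natural killer (NK) cells of C57BL/6 mice, the innate lymphocytes that lyse virus-infected and tumour cells and live only as long as cytokines such as IL-15 sustain them. The 6 libraries were 3 of the genotype IL-15Tg-Xbp1s cKO, a conditional knockout directed at Xbp1s, and 3 of the genotype IL-15Tg WT. Both genotypes carry an IL-15 transgene, so no library came from mice without it. The labels give neither the Cre driver of the knockout nor the age of the mice, nor whether each library came from a separate mouse. The p-values therefore describe the scatter of these 6 libraries, part of which may be technical.

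Anti-apoptotic members bind and hold back the effectors and the BH3-only proteins. BH3-only proteins are the sensors of the family: damage, loss of growth factor or other stress raises or activates them, and they either neutralise the anti-apoptotic members or activate the effectors directly. In NK cells IL-15 signalling is known to maintain survival through MCL-1 and BCL-2 and to keep BIM, the product of Bcl2l11, low. The series title links Xbp1s to the IL-15-mediated survival of NK cells, which sets the question of whether transcripts of this family differ between the genotypes.

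A pair of members needs a look at sequence before their values. Bcl2a1b and Bcl2a1d encode mouse copies of A1, an NF-kB-induced relative of BCL-2, and the table also lists the copy Bcl2a1a. The coding sequences of these 3 copies in GENCODE M21 are each 516 bases long without the stop codon. Bcl2a1b and Bcl2a1d differ at 6 of these bases (98.84% identity), Bcl2a1b and Bcl2a1a at 11 (97.87%), and Bcl2a1d and Bcl2a1a at 7 (98.64%). The first 120 coding bases are shown because they hold 7 of the 12 positions at which the 3 copies are not all alike. Capitals mark these positions, and lower case marks bases that all 3 share.
Bcl2a1b: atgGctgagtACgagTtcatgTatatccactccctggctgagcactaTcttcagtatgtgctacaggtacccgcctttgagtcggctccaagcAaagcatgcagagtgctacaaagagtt
Bcl2a1d: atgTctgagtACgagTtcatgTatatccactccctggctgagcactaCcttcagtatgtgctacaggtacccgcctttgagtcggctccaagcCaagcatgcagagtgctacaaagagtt
Bcl2a1a: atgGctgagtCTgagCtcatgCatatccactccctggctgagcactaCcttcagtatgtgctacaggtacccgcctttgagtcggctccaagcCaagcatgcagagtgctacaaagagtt
Reads of 50 bases were sequenced. Of the distinct 50-base windows in the Bcl2a1b transcript, 79.2% also occurred in a transcript of another gene. The share was 79.5% for Bcl2a1d and 69.0% for Bcl2a1a. For Bcl2 and Bcl2l11 it was 0.0989% and 0.135%, and for Mcl1, Bcl2l1, Bad, Bid, Bak1 and Bmf no window was shared. Bcl2a1b also shares 401 exonic bases, 49.1% of its exon length, with Gm29094, a gene model on the same strand that the table does not list. A read from a shared stretch cannot be assigned to 1 copy, so the values of single Bcl2a1 copies are uncertain and their sum is given beside them. If such reads were discarded rather than divided, the sum would lack them as well. The shorter copy Bcl2a1c, of 384 coding bases, is not listed and was not analysed here.

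The study's regulator is a transcription factor, so the promoter windows of the members, from 250 bases before to 50 bases after each annotated start, were searched on both strands for its motifs. All 10 members matched by symbol and have 16 such windows in RefSeq (GRCm38.p6). The core letters ACGTG, which also form part of the E-box CACGTG, were found in 1 of the 16, against 19.6% of all 32851 promoter windows. The longer TGACGTG was found in 0 of the 16, against 2.01% of all windows. The STAT recognition letters TTCNNNGAA, searched because IL-15 signals through STAT5, were found in 0 of the 16, against 8.3% of all windows. The single match lay at an alternative start of Bmf, beginning 1 base before it and not within an E-box. Along the strand of the gene it reads CACGT, the reverse complement of ACGTG. It is shown along that strand with 18 bases on each side and the match in capitals (chr2:118547578-118547618, minus strand, GRCm38.p6).
Bmf: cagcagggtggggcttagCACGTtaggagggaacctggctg
A match in these letters is a description of the sequence and not a binding site.

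Values are given in CPM, the reads of a gene for every 1000000 reads that fell on listed genes. Those reads numbered between 26297292 and 29366756 in the 6 libraries. A single read was worth 0.0341 to 0.038 CPM. All 13 NK markers were listed, with a summed level of 12100 to 13100 CPM in cKO libraries and 12900 to 14700 CPM in WT libraries. The targeted gene Xbp1 was at 35.1, 33.4 and 39.7 CPM in cKO libraries 1, 2 and 3, against 42.9, 61.4 and 63.5 CPM in WT libraries 1, 2 and 3, without overlap. Its log2 fold change of -0.61 was not called by limma or edgeR (adjusted p = 1.0 in each) or by DESeq2 (adjusted p = 0.224). Its spliced and unspliced forms are counted together. Markers of 13 B cell genes, all listed, summed to 570 to 1430 CPM in cKO libraries and 286 to 945 CPM in WT libraries. The log2 fold change was positive for 13 of 13 B cell markers, 6 of 6 listed monocyte and macrophage markers and 1 of 13 NK markers. Among tested markers it was positive for 7 of 8 of dendritic cells, 7 of 10 of neutrophils and 7 of 11 of T cells. For plasma cells it was 2 of 3 and for erythroid cells 3 of 5. Over all genes tested, 6296 of 11343 were positive. The other sums were 218 to 290 CPM in cKO and 232 to 307 CPM in WT for T cells (11 of 11 markers listed), 236 to 446 and 195 to 263 CPM for monocytes and macrophages (6 of 13), 848 to 896 and 877 to 1020 CPM for dendritic cells (8 of 10), 126 to 175 and 109 to 146 CPM for neutrophils (11 of 12), 178 to 211 and 182 to 200 CPM for plasma cells (4 of 6), and 24.1 to 67.2 and 22.1 to 91.4 CPM for erythroid cells (7 of 9), each cKO range before its WT range. No listed marker was at 0 in any library. Libraries did not group by genotype: 3 pairs across the genotypes were more alike over all genes (cKO 2 with WT 1, cKO 1 with WT 2 and cKO 3 with WT 3, at a chi-square per degree of freedom of 4.74, 7.13 and 14.5) than any of the 6 pairs within a genotype (16.8 to 42.2). In RNA from a whole preparation, fewer cells of a type and less RNA per cell cannot be told apart.

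Over all 10 genes, 5 had a positive and 5 a negative difference between cKO and WT NK cells, and none passed the test. The count called was 0 by limma on log2(CPM + 0.5) at a Benjamini-Hochberg adjusted p under 0.05 over all 11343 genes tested, which called 0.0% of all genes. At an unadjusted p under 0.05 limma listed 0 of the 10, beside 1.17% of all genes. The edgeR quasi-likelihood test and DESeq2 on the recovered reads also called 0 of the 10, beside 0.0% and 0.0529% of all genes. At an unadjusted p under 0.05 both listed 0 of the 10, beside 1.28% and 1.37% of all genes. In none of the 10 did all cKO libraries lie on 1 side of all WT libraries, which was so for 4.32% of all genes. All 10 passed the filter of 1 CPM in at least 3 of 6 libraries. Their median log2 fold change was -0.0006, beside 0.0087 over all genes tested.

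**Figure D1:**
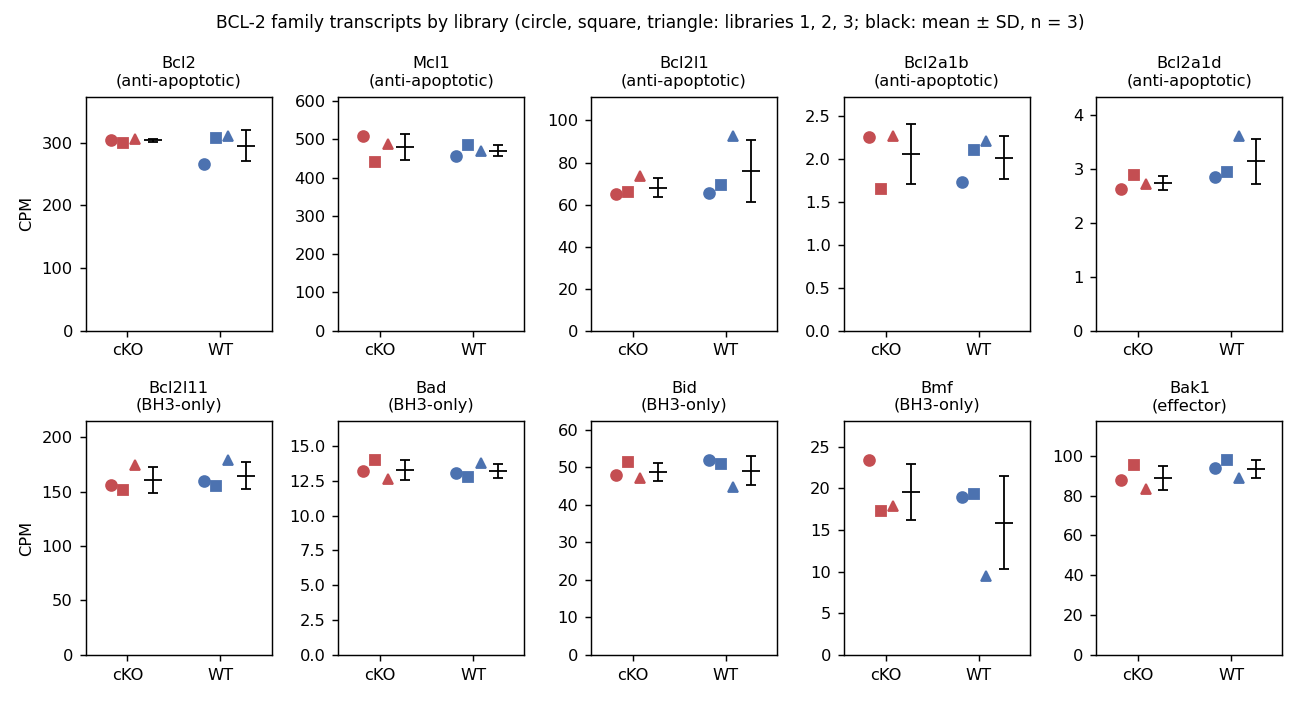
Levels of the 10 BCL-2 family genes in CPM (vertical axis, from 0 in each panel) in the 3 cKO and 3 WT libraries. Symbols are single libraries and the black mark is the mean ± SD (n = 3). The groups overlap in every panel, and WT library 3 stands apart for Bcl2l1 at 92.8 CPM and for Bmf at 9.47 CPM.

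Among the anti-apoptotic members, Mcl1 (ENSMUSG00000038612.16, plus strand of chromosome 3, 95658788 to 95663176, mm10), whose short-lived product is required for NK cell survival, was the most abundant. It was at 510, 442 and 489 CPM in cKO libraries 1, 2 and 3, against 456, 485 and 469 CPM in WT libraries 1, 2 and 3. The highest and the lowest value were both from cKO libraries, so the WT range lay inside the cKO range. The means were 480 ± 34.4 CPM in cKO and 470 ± 14.6 CPM in WT (SD, n = 3 each). The log2 fold change was 0.03 with a 95% interval of -0.13 to 0.19 (limma adjusted p = 1.0), which as a percentage runs from -8.43% to 13.8%. A two-sided exact permutation test over the 6 libraries gave p = 0.7, where 0.1 is the smallest that 3 against 3 libraries allow. Without cKO library 1 the log2 fold change was -0.014.

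Bcl2 (ENSMUSG00000057329.7, minus strand of chromosome 1, 106538178 to 106714274) encodes the founding anti-apoptotic member. It was at 304, 300 and 306 CPM in cKO libraries, against 266, 307 and 311 CPM in WT libraries, in the order 1, 2 and 3 used from here on. WT library 1 was the lowest and WT library 3 the highest, and the cKO libraries lay between them and close together. The means were 303 ± 3.18 CPM in cKO and 295 ± 24.7 CPM in WT (SD, n = 3 each), and the log2 fold change was 0.04, with an interval of -0.12 to 0.21 (limma adjusted p = 1.0, exact permutation p = 1.0). Without WT library 1 it was -0.027. An antisense gene, D630008O14Rik, shares 6.09% of the exon length of Bcl2, and without known strand use its reads cannot be told apart there.

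Bcl2l1 (ENSMUSG00000007659.18, minus strand of chromosome 2, 152780668 to 152831728) encodes BCL-XL and, by alternative splicing, the pro-apoptotic BCL-XS, which the values do not separate. It was at 64.9, 65.8 and 73.4 CPM in cKO libraries, against 65.7, 69.3 and 92.8 CPM in WT libraries. The other 5 libraries lay within 10 CPM of each other, and WT library 3 was well above them. The means were 68.0 ± 4.69 CPM in cKO and 75.9 ± 14.7 CPM in WT (SD, n = 3 each), and the log2 fold change of -0.14 had an interval of -0.46 to 0.18 (limma adjusted p = 1.0, exact permutation p = 0.6). Without WT library 3 the log2 fold change was 0.010, so the sign of the difference rests on that library.

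The A1 copies had low values, which would be too low if reads of shared stretches were discarded. Bcl2a1d (ENSMUSG00000099974.1, minus strand of chromosome 9, 88723285 to 88731914) was at 2.62, 2.88 and 2.71 CPM in cKO libraries, against 2.85, 2.94 and 3.61 CPM in WT libraries. The groups overlapped through cKO library 2 and WT library 1. The log2 fold change was -0.16 with an interval of -0.50 to 0.18 (limma adjusted p = 1.0, exact permutation p = 0.2). Without WT library 3 it was -0.069. Bcl2a1b (ENSMUSG00000089929.1, plus strand of chromosome 9, 89199209 to 89207827) was at 2.25, 1.65 and 2.27 CPM in cKO libraries, against 1.73, 2.10 and 2.21 CPM in WT libraries, a log2 fold change of 0.02 with an interval of -0.39 to 0.43 (limma adjusted p = 1.0, exact permutation p = 0.8). The sign of this value turned under quantile normalization (-0.10) and without cKO library 1 (-0.038), cKO library 3 (-0.043) or WT library 1 (-0.063). Both rest on few reads, 73 to 95 per library for Bcl2a1d and 47 to 66 for Bcl2a1b. Bcl2a1a, at 1.26, 1.12 and 1.34 CPM in cKO libraries and 1.08, 0.91 and 1.64 CPM in WT libraries, was the lowest of the 3 listed copies in every library. The sum of the 3 copies, which depends less on any division of reads among them but does not restore discarded reads, was 6.13, 5.65 and 6.32 CPM in cKO libraries, against 5.67, 5.95 and 7.45 CPM in WT libraries. WT library 3 was the highest and the other 5 libraries overlapped. The log2 fold change of the sum was -0.06 with an interval of -0.39 to 0.26 (limma adjusted p = 1.0, exact permutation p = 0.8), and it was 0.050 without WT library 3.

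**Figure D2:**
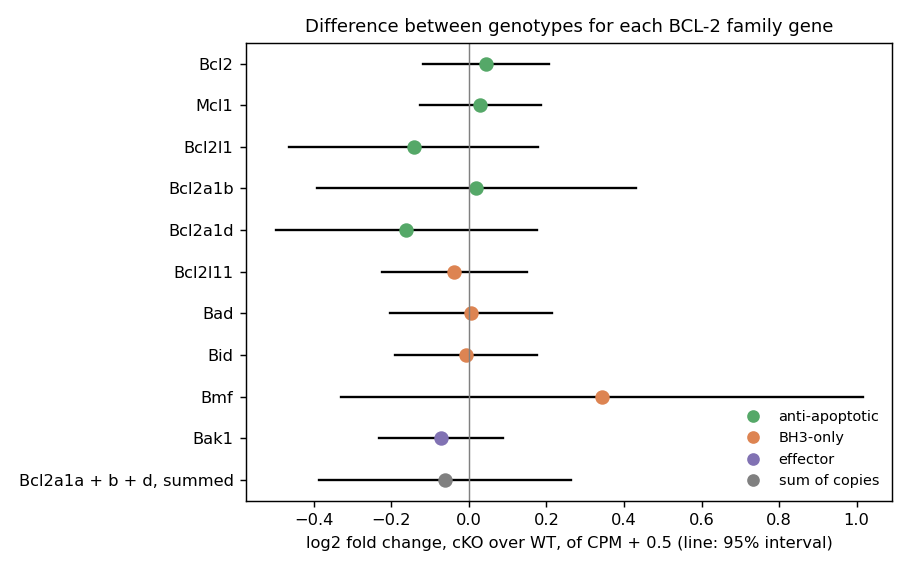
Log2 fold change, cKO over WT, of CPM + 0.5 (horizontal axis) for each member and for the summed Bcl2a1 copies, with the 95% interval of the limma fit as a line and colours for the role in the family. Every interval crosses 0, and that of Bmf is the widest, from -0.33 to 1.02.

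Of the BH3-only members, Bcl2l11 (ENSMUSG00000027381.16, plus strand of chromosome 2, 128126038 to 128162547) encodes BIM, which binds every anti-apoptotic member and drives the death of lymphocytes deprived of cytokine. It was at 156, 151 and 174 CPM in cKO libraries, against 160, 155 and 179 CPM in WT libraries. Library 3 was the highest of each genotype, and the spread within a genotype exceeded the difference between the genotypes. The means were 160 ± 12.1 CPM in cKO and 165 ± 12.7 CPM in WT (SD, n = 3 each). This gave a log2 fold change of -0.04 with an interval of -0.23 to 0.15 (limma adjusted p = 1.0, exact permutation p = 0.6), and its sign turned without WT library 3 (0.024) or cKO library 2 (0.0032).

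Bid (ENSMUSG00000004446.12, minus strand of chromosome 6, 120891930 to 120916853) encodes a protein that caspase-8 and granzyme B cleave into an activator of the effectors. It was at 47.8, 51.4 and 47.0 CPM in cKO libraries, against 51.9, 50.7 and 44.6 CPM in WT libraries, and the cKO range lay inside the WT range. Its log2 fold change was -0.0071, with an interval of -0.19 to 0.18 (limma adjusted p = 1.0, exact permutation p = 0.9). It was positive without cKO library 1 (0.0058), cKO library 3 (0.018), WT library 1 (0.035) or WT library 2 (0.017). Bcl2l13, which is also listed, runs on the opposite strand and shares 17.7% of the exon length of Bid, so reads there could belong to either gene if strand was not used.

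Bad (ENSMUSG00000024959.14, plus strand of chromosome 19, 6941861 to 6951899) encodes a BH3-only protein that survival kinases, the Pim family among them, inactivate by phosphorylation. It was at 13.2, 14.0 and 12.6 CPM in cKO libraries, against 13.1, 12.8 and 13.8 CPM in WT libraries, and the WT range lay inside the cKO range. Its log2 fold change was 0.0059, with an interval of -0.20 to 0.21 (limma adjusted p = 1.0, exact permutation p = 0.8). Under median-ratio scaling the sign turned, to -0.0066, and under quantile normalization it was -0.044. It was also negative without cKO library 2 (-0.032), WT library 1 (-0.0020) or WT library 2 (-0.018), and on the recovered reads in edgeR (-0.0048) and DESeq2 (-0.0049). Gpr137 on the opposite strand shares 20.5% of the exon length of Bad.

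Bmf (ENSMUSG00000040093.16, minus strand of chromosome 2, 118528757 to 118549687) encodes a BH3-only protein that is held on the cytoskeleton by a dynein light chain. It varied most of the 10 genes. It was at 23.4, 17.3 and 17.9 CPM in cKO libraries, against 18.9, 19.3 and 9.47 CPM in WT libraries. cKO library 1 was the highest and WT library 3 the lowest, a ratio of 2.47, and the other 4 libraries lay between 17.3 and 19.3 CPM. The means were 19.5 ± 3.33 CPM in cKO and 15.9 ± 5.56 CPM in WT (SD, n = 3 each). The log2 fold change of 0.34 had an interval of -0.33 to 1.02 (limma adjusted p = 1.0, exact permutation p = 0.6), and without WT library 3 it was 0.019. Without cKO library 1 it was 0.21, and without WT library 2, 0.51.

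The library order of Bmf was set beside that of other cells' markers. The 13 B cell markers summed to 1430, 570 and 1320 CPM in cKO libraries, against 763, 945 and 286 CPM in WT libraries. All 13 were lowest in WT library 3, where Bmf was lowest, and 8 of the 13 were highest in cKO library 1, where Bmf was highest. The orders part elsewhere: cKO library 3 had more B cell marker reads than either WT library 1 or 2 and less Bmf than both. The monocyte and macrophage markers summed to 446 CPM in cKO library 1, their highest, and 195 CPM in WT library 3, their lowest. Neutrophil markers had the same extremes, at 175 and 109 CPM, whereas the T cell, dendritic cell, plasma cell and erythroid sums did not. The part of RNA of B cells or of these other cells in the Bmf values was not tested. Among 9101 other genes with a mean of at least 10 CPM, the 3 whose log2 values over the 6 libraries, centred on their own means, lay closest to those of Bmf were Ephx1, Plac8 and Cnr2, with root mean square differences of 0.103, 0.130 and 0.146 log2 units, where the median gene differed by 0.401. Ephx1, which encodes the microsomal epoxide hydrolase, was at 14.9, 10.8 and 11.7 CPM in cKO libraries, against 10.2, 11.8 and 6.46 CPM in WT libraries. Plac8 was at 48.9, 35.5 and 34.2 CPM in cKO libraries, against 31.2, 34.6 and 20.5 CPM in WT libraries. Cnr2, the gene of the cannabinoid receptor of immune cells, was at 27.7, 22.0 and 26.2 CPM in cKO libraries, against 26.3, 20.7 and 11.5 CPM in WT libraries. Each was lowest in WT library 3 and highest in cKO library 1, which follows largely from their choice by closeness to Bmf.

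**Figure D3:**
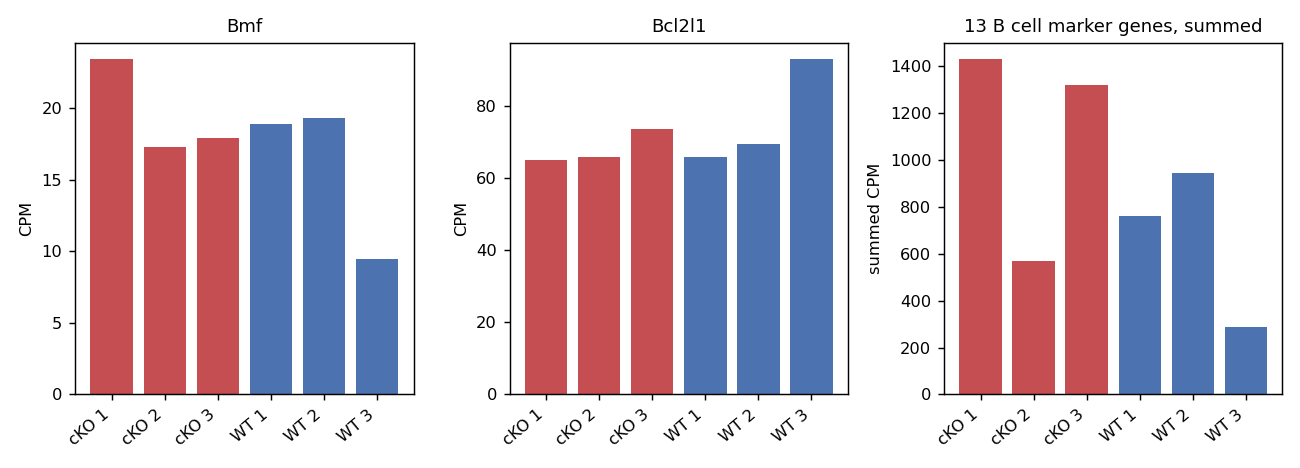
Bmf and Bcl2l1 in CPM and the summed CPM of the 13 B cell markers (vertical axes, from 0) in each cKO (red) and WT (blue) library. WT library 3 is lowest for Bmf (9.47 CPM) and for the markers (286 CPM) and highest for Bcl2l1 (92.8 CPM).

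The effector Bak1 (ENSMUSG00000057789.14, minus strand of chromosome 17, 27019810 to 27029009) encodes BAK, which sits in the outer mitochondrial membrane and forms its pores. It was at 88.0, 95.4 and 83.4 CPM in cKO libraries, against 93.7, 97.9 and 88.8 CPM in WT libraries. cKO libraries 1 and 3 were below all WT libraries and cKO library 2 lay among them. The means were 88.9 ± 6.06 CPM in cKO and 93.5 ± 4.53 CPM in WT (SD, n = 3 each). On the log2 scale the difference was -0.07, with an interval of -0.23 to 0.09 (limma adjusted p = 1.0, exact permutation p = 0.4). The difference was negative whichever library was left out, between -0.12 and -0.028. Ggnbp1 models on the opposite strand share up to 18.2% of the exon length of Bak1.

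The size of change was bounded by the intervals of the limma fit, which has genotype as its only term. That fit does not model the likeness of libraries across the genotypes, on which the width of the intervals may depend. For 9 of the 10 members the 95% interval of this fit lay inside a change of 1.5-fold either way. The exception was Bmf, whose interval as a percentage ran from -20.4% to 102%. For Bcl2a1b and Bcl2a1d this is not a firm limit, because most of their 50-base windows are shared. The constant added to CPM also shrinks fold changes at their low levels. The log2 fold change of Bcl2a1d was -0.16 in this fit. It was -0.18 with a pseudocount of 0.1, -0.14 with 1 and -0.3 under quantile normalization. The narrowest limits were those of Bak1 (-14.9% to 6.27%), Mcl1 (-8.43% to 13.8%) and Bcl2 (-7.84% to 15.4%). The intervals do not show that the genotypes had equal levels.

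The spread within a genotype was compared with counting error, which was near 0.869% of the value for Mcl1 and 13.3% for Bcl2a1b. For Bad, Bcl2a1d and Bcl2a1b the within-genotype chi-square per degree of freedom was 0.815, 0.835 and 1.26, so their libraries differed about as much as counting alone gives. It was 5.68 for Bid and 8.73 for Bak1. It was higher for Bcl2l11 (25.9), Bcl2 (28.9), Bmf (34.1), Mcl1 (41.8) and Bcl2l1 (43.1). This ratio grows with the number of reads, so it does not rank the members by their relative spread: the highest library was 1.15 times the lowest for Mcl1 and 2.47 times for Bmf. WT library 3 was the highest of all 6 for 4 members (Bcl2, Bcl2l1, Bcl2a1d and Bcl2l11) and the lowest for 2 (Bid and Bmf). WT library 2 was the highest for Bak1 and the lowest for none.

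Levels of different genes were compared after division by exon length, as CPM per kilobase of exon. Mcl1 was highest, at 141 ± 10.1 CPM per kilobase in cKO and 137 ± 4.27 CPM per kilobase in WT, above 98.2% of the listed genes. Bak1 followed at 36.9 ± 2.52 and 38.8 ± 1.88 CPM per kilobase in cKO and WT. Bcl2 was at 33.1 ± 0.348 and 32.2 ± 2.70 CPM per kilobase in cKO and WT, and the ranges of these top members over the 6 libraries did not overlap. Bcl2l11 came next, at 20.0 ± 1.51 CPM per kilobase in cKO and 20.5 ± 1.59 CPM per kilobase in WT. Bcl2l1, at 14.8 ± 1.02 CPM per kilobase in cKO and 16.6 ± 3.22 CPM per kilobase in WT, overlapped both Bcl2l11 above it and Bid below it, and Bid was at 13.7 ± 0.645 and 13.8 ± 1.10 CPM per kilobase in cKO and WT. Bad stood apart at 5.19 ± 0.271 CPM per kilobase in cKO and 5.17 ± 0.216 CPM per kilobase in WT. Bcl2a1d (3.17 ± 0.152 in cKO and 3.63 ± 0.482 CPM per kilobase in WT), Bmf (3.72 ± 0.634 in cKO and 3.02 ± 1.06 CPM per kilobase in WT) and Bcl2a1b (2.52 ± 0.429 in cKO and 2.46 ± 0.303 CPM per kilobase in WT) were lowest and each overlapped its neighbour (SD, n = 3 throughout). Exon length is the union over all isoforms, so a gene whose long isoforms are little used is placed too low. The places of the Bcl2a1 copies are uncertain for the reason given above, and would be too low if shared reads were discarded.

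**Figure D4:**
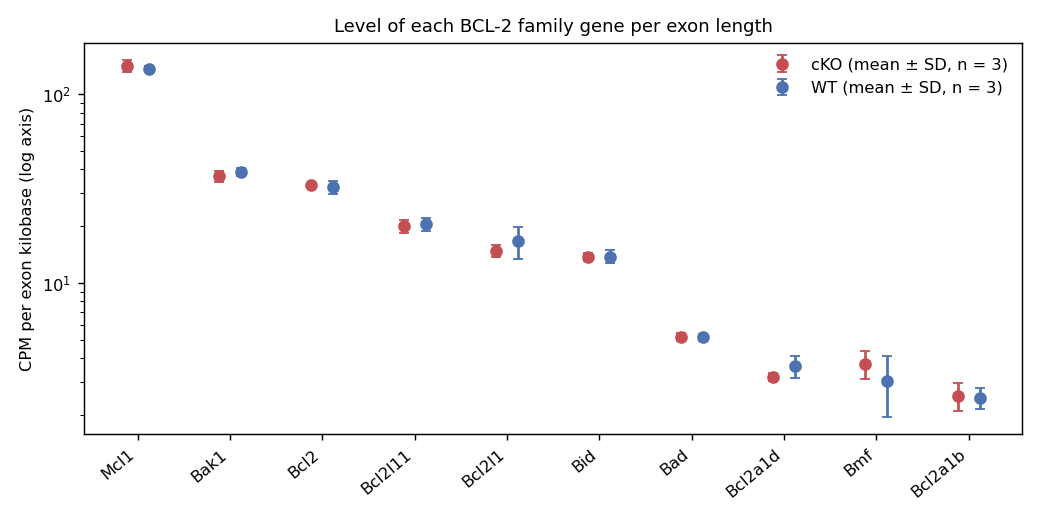
CPM per kilobase of exon (vertical axis, logarithmic) for the 10 members in order of their mean, as mean ± SD of 3 cKO (red) and 3 WT (blue) libraries. Mcl1 lies at 139 CPM per kilobase over all libraries, and the order is the same in both genotypes except among the lowest members.

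The rest of the family was read from a list of 16 further genes. Of these, 10 were listed and tested, 7 with a positive and 3 with a negative difference, and limma, edgeR and DESeq2 called 0. At an unadjusted p under 0.05 limma listed 1, beside 1.17% of all genes, and edgeR and DESeq2 listed 0, beside 1.28% and 1.37% of all genes. The median log2 fold change was 0.034. Bax, the other effector, was at 31.7 ± 0.202 CPM in cKO and 28.5 ± 1.09 CPM in WT (SD, n = 3 each). It was the single gene of the 10 without overlap, with all cKO libraries above all WT libraries, as in 2.55% of all genes, and its log2 fold change was 0.15 (limma adjusted p = 1.0). Bcl2l12 was at 17.3 ± 0.344 CPM in cKO and 19.0 ± 1.28 CPM in WT, and Bcl2l14 at 4.58 ± 0.394 CPM in cKO and 3.79 ± 1.78 CPM in WT (SD, n = 3 each).

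Downstream of the membrane, all 23 genes of the caspase and apoptosome list were tested, 13 with a positive and 10 with a negative difference, a median of 0.0039 and 0 called or at an unadjusted p under 0.05 by limma, edgeR or DESeq2. Casp6, an executioner caspase, was at 15.5 ± 0.454 CPM in cKO and 16.8 ± 0.736 CPM in WT (SD, n = 3 each) and was the single gene of the 23 without overlap (exact permutation p = 0.1), a share near the 4.32% of all genes tested. Casp8, the initiator caspase of death receptors, was at 145 ± 0.785 CPM in cKO and 150 ± 9.11 CPM in WT, and Birc3, which encodes the inhibitor cIAP2, at 103 ± 11.6 CPM in cKO and 97.3 ± 4.33 CPM in WT (SD, n = 3 each).

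Of 25 genes whose products regulate BCL-2 family proteins, 24 were listed and tested, 10 with a positive and 14 with a negative difference and a median of -0.0091. Limma, edgeR and DESeq2 each called 0 and each listed 1 at an unadjusted p under 0.05, beside 1.17%, 1.28% and 1.37% of all genes. The kinase gene Pim2, named in the series title, was at 45.9 ± 1.28 CPM in cKO and 59.6 ± 7.55 CPM in WT (SD, n = 3 each), without overlap, a log2 fold change of -0.37 (limma adjusted p = 1.0, exact permutation p = 0.1). Akt2, a kinase that also acts on BAD, was at 177 ± 6.82 CPM in cKO and 188 ± 7.08 CPM in WT, and the phosphatase gene Ppp2ca at 210 ± 4.34 CPM in cKO and 218 ± 3.92 CPM in WT (SD, n = 3 each). These 3 and Ywhab, a 14-3-3 gene that is named because it completes this count, were the 4 of 24 genes of the list with all cKO libraries below all WT libraries, which was so for 1.77% of all genes tested, and none of the 4 was called.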

How the data were processed

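Libraries were made with the KAPA Hyper Prep kit and read on a HiSeq2500 as single reads of 50 bases, per the labels' protocols. Alignment to mm10 and the tools HISAT2, HTSeq and DESeq2 are listed, with no version, in the submitters' processing notes. How strand and multiply mapped reads were treated is not given in the sources used here. The deposited table is named for RPKM, but its values are CPM that the authors did not divide by length: each column sums to 1000000 and 100% of values are whole multiples of 1 read within 0.01 reads. The exon lengths are another deposited column, and 0 columns were left unused.

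The 10 members and all gene lists were chosen with earlier results of these data known. The planned test for RPKM was applied to CPM: log2(CPM + 0.5), genes at 1 CPM or more in at least 3 libraries, limma 3.58.1 with an intensity trend in R 4.3.3, genotype as the only term, Benjamini-Hochberg over 11343 genes. Recovered reads were tested with edgeR 4.0.16 and DESeq2 1.42.0. Tests were checked on simulated data, which did not include the likeness of libraries across the genotypes. Coordinates and overlaps come from GENCODE M21 (mm10), matched by identifier without its version. The identifiers printed are those of the deposited table, and for Bmf GENCODE M21 holds ENSMUSG00000040093.15. Named beside the members were Xbp1, the 3 genes of smallest p in each of 3 pathway lists, and the 3 genes closest in pattern to the most variable member of at least 10 CPM. Markers of 8 cell types were summed. The intervals given are those of the limma fit on log2(CPM + 0.5), so they reflect the scatter between libraries and not counting error alone. No interval on recovered reads is given.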

Additional observations from a re-analysis of the deposited data

How the results depend on the processing

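No member of the family, and no gene of the 3 pathway lists, was called under any alternative run (pseudocounts of 0.1 and 1, no filter, a mean of at least 5 CPM, median-ratio scaling, quantile normalization, removal of Gm26917 and Gm42418, a replicate block, edgeR, DESeq2 and each library left out). Over all genes DESeq2 called 6, and limma, edgeR and every other run called 0. Outside DESeq2 the lack of called members is therefore no result about the members. Signs were not stable for members near 0. Bad turned negative under median-ratio scaling (-0.0066), quantile normalization (-0.044), edgeR (-0.0048) and DESeq2 (-0.0049), and Bcl2a1b under quantile normalization (-0.10). The cause was not tested. With each library left out in turn, the log2 fold change lay between -0.027 and 0.084 for Bcl2, -0.014 and 0.087 for Mcl1, -0.24 and 0.010 for Bcl2l1, -0.063 and 0.14 for Bcl2a1b, -0.22 and -0.069 for Bcl2a1d, -0.13 and 0.050 for the summed copies, -0.099 and 0.024 for Bcl2l11, -0.032 and 0.040 for Bad, -0.073 and 0.035 for Bid, -0.12 and -0.028 for Bak1, 0.019 and 0.51 for Bmf, and -0.79 and -0.51 for Xbp1. A mean of at least 5 CPM removes Bcl2a1b and Bcl2a1d. Deviations from the genotype means correlated at -0.169 and -0.506 between the libraries numbered 1 and 2 and at 0.482 between those numbered 3, so the numbers do not pair the samples throughout. Across numbers, the correlation was 0.647 between cKO library 1 and WT library 2 and 0.586 between cKO library 2 and WT library 1. The other pairs of unlike number lay between -0.575 and 0.104. The replicate block follows the numbers, so it cannot account for such a pairing, and no fit with that pairing was run. The fit with the replicate block, which in this balanced design cannot move a fold change (Bmf 0.34), called 0 genes. Few reads limit the Bcl2a1 copies.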
